A study of Rattus norvegicus with 10 samples.

Results

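The microRNA genes of the rat cortex that lie outside the large Dlk1-Dio3 microRNA cluster were followed 3 h after occlusion of the middle cerebral artery (MCAO), with and without neuregulin-1 (NRG1). They were all probe sets with a single gene symbol made of Mir and a number, or of Mirlet7, after the cluster's microRNAs had been left out by their numbers. Of 363 such microRNA probe sets, 41 were left out and 322 remained, each the only probe set of its gene, among 18511 single-symbol probe sets tested. A further 21 microRNA probe sets with several symbols were not analysed here. The RefSeq gene order (GRCr8) places 12 of the 322 between Dlk1 and Dio3 all the same, so the numbers did not remove that region completely.

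The left cortex of 10 adult male Sprague-Dawley rats was measured on Affymetrix Rat Gene 2.0 ST arrays, 1 animal per array. The sham group (n = 4) went through the surgery without the filament. The MCAO group (n = 3) had a permanent left occlusion and received vehicle, 1% BSA in PBS. The MCAO+NRG1 group (n = 3) received the EGF-like domain of NRG1β into the internal carotid artery just before the same occlusion. The RNA came from left cortical tissue of coronal slices, so a drop in signal can come from fewer cells of a type or from less RNA per cell, and bulk tissue cannot tell these apart.

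A microRNA is cut from a hairpin within a longer primary transcript, by Drosha in the nucleus and Dicer in the cytoplasm. A strand of the resulting short duplex is loaded into an Argonaute protein, where bases 2 to 8, the seed, pair with target messenger RNAs and lower their translation and stability. Many microRNA genes sit in introns of protein-coding hosts or in clusters that are transcribed together. In cortex, miR-124, miR-9, miR-128, miR-138 and miR-132 are known as neuronal microRNAs, miR-126 as endothelial, miR-122 as hepatic, and miR-133 as muscle microRNAs. The labelled material was made from total RNA, and primary transcript, hairpin and mature form cannot be told apart in the signal of a probe set.

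The mature sequences of the genes on which the results turn are given from RefSeq (GRCr8), 5′ to 3′, with the seed in capitals. A mature sequence was found for 303 of the 322 genes. The first 4 come from the Mir23b cluster and the hairpin opposite it, and the next 9 from other genes that were lower after occlusion. Of the last 4, miR-122 and miR-212 come from the genes that differed most between MCAO+NRG1 and MCAO. MiR-132 is given beside miR-212, and miR-133b comes from a gene that was higher in MCAO+NRG1 than in sham.
rno-miR-23b-3p: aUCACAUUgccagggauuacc
rno-miR-27b-3p: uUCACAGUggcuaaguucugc
rno-miR-24-1-5p: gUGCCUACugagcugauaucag
rno-miR-3074: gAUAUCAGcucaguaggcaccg
rno-miR-540-3p: aGGUCAGAggucgauccugggc
rno-miR-544-3p: aUUCUGCAuuuuuagcaagcu
rno-miR-501-3p: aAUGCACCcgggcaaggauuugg
rno-miR-628: aUGCUGACauauuuacgagagg
rno-miR-219b: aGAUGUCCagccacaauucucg
rno-miR-9a-5p: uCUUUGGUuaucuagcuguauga
rno-miR-138-5p: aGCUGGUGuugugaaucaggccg
rno-miR-125a-5p: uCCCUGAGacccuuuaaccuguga
rno-let-7e-5p: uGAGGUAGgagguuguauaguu
rno-miR-122-5p: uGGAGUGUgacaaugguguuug
rno-miR-132-3p: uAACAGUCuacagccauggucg
rno-miR-212-3p: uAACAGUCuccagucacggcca
rno-miR-133b-3p: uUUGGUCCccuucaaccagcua
The 303 genes gave 514 mature sequences with 413 different seeds, and 59 seeds were shared by 2 or more genes. The let-7 seed GAGGUAG was the most widely shared, with 11 genes. MiR-132-3p and miR-212-3p share the seed AACAGUC. MiR-3074 is read from the strand opposite Mir24-1, and 20 bases in a row pair with miR-24-1-5p. MiR-219b, the product of the gene with the symbol Mir2964, pairs in the same way over 20 bases with miR-219a-2-3p of the opposite strand. The symbols are those of the array annotation, and 15 genes carry a mature microRNA of another number. The symbols Mir9 and Mir8 belong to miR-7 sequences, while miR-9a comes from Mir9-1, Mir9-2 and Mir9-3. Likewise the gene Mir126a holds rno-miR-126b.

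Most of these genes gave little signal. The level that 95% of 1359 olfactory and vomeronasal receptor probe sets stay under, 4.64 log2, was taken as the mark for low signal, because cortex is not a tissue of those receptors. Only 79 of the 322 microRNA genes (24.5%) had a mean over the 10 arrays above it, against 68.3% of all single-symbol probe sets. Near the floor of an array the signal understates a change, so differences of genes below the mark are not exact sizes.

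The signal of the whole array also moved with the groups. The median of the single-symbol probe sets was 6.05 to 6.11 on the sham arrays, 5.80, 5.82 and 6.12 on the MCAO arrays and 5.79 to 5.81 on the MCAO+NRG1 arrays. The median of the microRNA genes was 3.63 to 3.79 in sham, 3.34 to 3.41 in MCAO and 3.30 to 3.37 in MCAO+NRG1. The third MCAO array thus stood apart from the other 2 over all genes but not over the microRNA genes. Differences are given as deposited, and they were also computed after each array was centred on its own median. Most calls did not pass after centring: the 8 microRNA genes that passed there in MCAO and the 11 in MCAO+NRG1 are named beside the counts, and every other call of a microRNA gene was lost.

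In MCAO against sham all the microRNA genes that passed the test as deposited were lower. There 26 of 322 were lower (8.07%) and 0 were higher in limma at adjusted p under 0.05, where 5.61% of all probe sets were lower and 1.1% were higher. At an unadjusted p under 0.05 the counts were 99 lower and 6 higher, where 23.6% and 5.48% of all probe sets were. The 26 differences ranged from 0.53 to 1.32 log2 in size, and in all 26 the MCAO arrays lay below every sham array. Such a gap was seen for 75 genes in the lower direction and 1 in the higher, against 17.8% and 2.74% of all probe sets. The median over the microRNA genes was −0.25 log2, and over all probe sets −0.16 log2. Below the low-signal mark, 18 of 243 microRNA genes were lower (7.41%), against 6.45% of all probe sets and 3.56% of receptor probe sets with signal this low. Above it the counts were 8 of 79 microRNA genes (10.1%) and 5.21% of all probe sets. After median centring 6 of the 322 were lower and 2 higher, where 1.06% of all probe sets were lower and 2.2% higher. The 6 were Mir23b, Mir27b, Mir2964, Mir540, Mir544 and Mir628, all of them also lower before centring, and the 2 were Mir98 and Mir216b. With centring and without the third MCAO array, only 1 gene was lower and 1 higher. After quantile normalisation 3 were higher, and without the first sham array 6 were.

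The count rested on few arrays. It was 66 without the first sham array (60 lower and 6 higher) and 45 without the third MCAO array, and between 4 and 7 when any of the other 3 sham or 2 MCAO arrays was left out. None of the 12 genes named for this direction kept its call without each array in turn. Mir23b, Mir540 and Mir2964 lost it only without the second MCAO array (adjusted p = 0.0572, 0.0556 and 0.0572) and Mir544 only without the second sham array (adjusted p = 0.0511). Their differences kept their sign throughout.

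**Figure D1:**
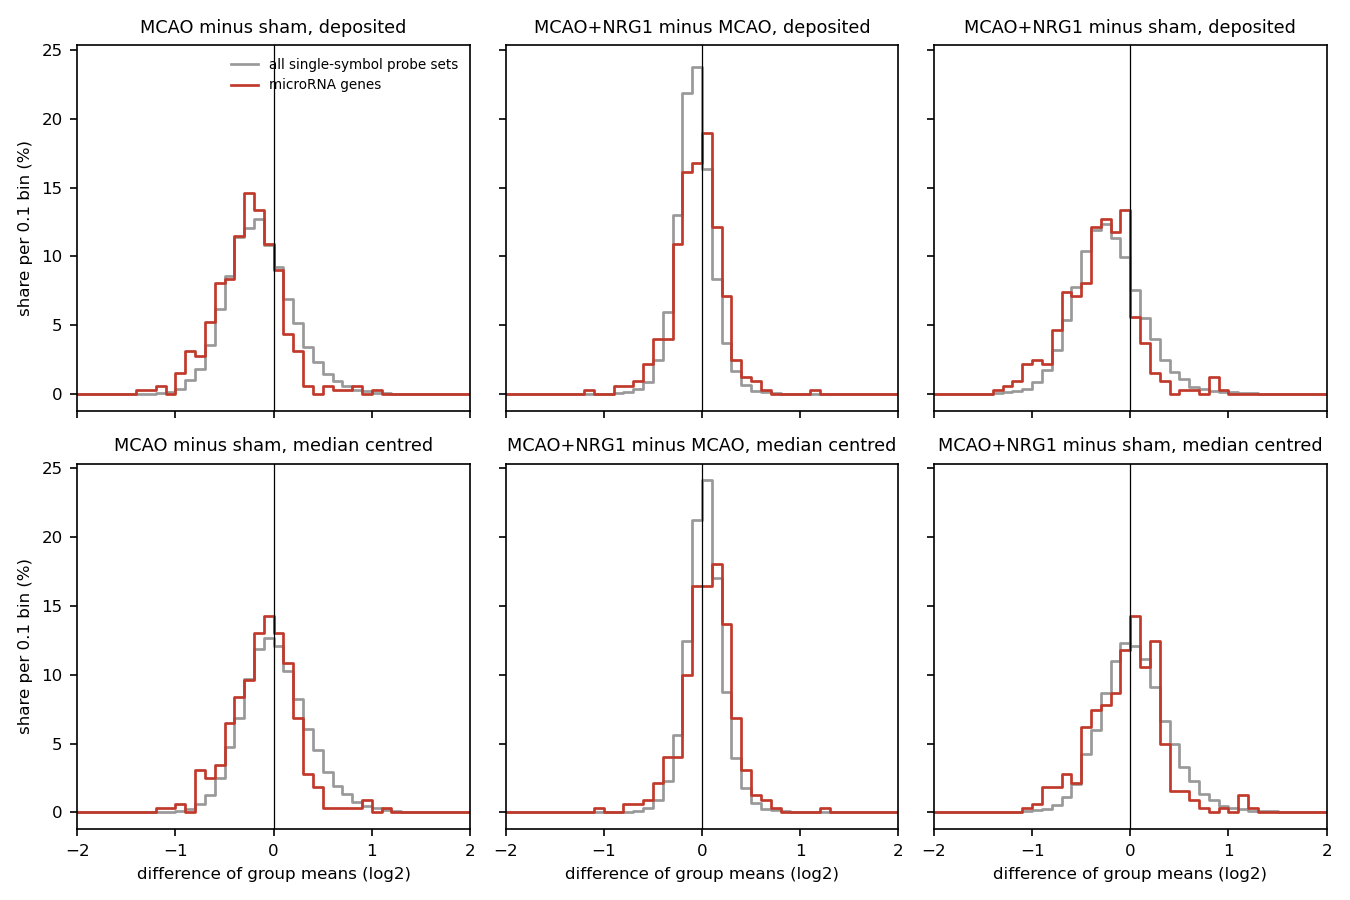
Share of genes (%) per 0.1 log2 bin of the difference of group means, for the 322 microRNA genes (red) and all 18511 single-symbol probe sets (grey), as deposited (top) and after median centring (bottom). The red curve lies left of 0 in both comparisons with sham as deposited, with medians of −0.25 and −0.29, and close to 0 after centring, with medians of −0.09 and −0.02.

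The 23b-27b-24-1 cluster lies in an intron of Aopep, an aminopeptidase gene, and its microRNAs are known from studies of vessels and of neuronal apoptosis. Mir23b was 6.49, 6.54, 6.86 and 6.65 log2 on the sham arrays, 5.96, 5.36 and 5.76 in MCAO, and 5.42, 5.66 and 5.34 with NRG1. All 6 occluded arrays lay below all sham arrays. Mir23b fell by 0.94 ± 0.17 log2 (SE) in MCAO, a 1.92-fold difference (adjusted p = 0.0127), and by 1.16 ± 0.17 in MCAO+NRG1 (adjusted p = 0.00174). Both calls held after median centring (adjusted p = 0.0337 and 0.0146).

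Mir27b was 5.60, 5.07, 4.81 and 5.35 log2 in sham, 3.74, 3.86 and 4.36 in MCAO, and 3.54, 3.70 and 4.63 with NRG1. Neither occluded group overlapped sham, and the highest occluded array was the third of MCAO+NRG1. The difference was −1.22 ± 0.25 (adjusted p = 0.0188) without NRG1 and −1.25 ± 0.25 (adjusted p = 0.00814) with it. The third member, Mir24-1, was 4.03, 3.48, 3.24 and 4.20 in sham and 3.52, 3.28 and 3.17 in MCAO. Those groups overlapped, and the difference of −0.41 ± 0.23 did not pass (adjusted p = 0.243).

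Mir3074, whose hairpin lies opposite Mir24-1, was 4.65, 5.24, 5.53 and 5.35 log2 in sham, 4.27, 4.58 and 4.29 in MCAO, and 4.58, 4.40 and 4.15 with NRG1. The occluded arrays were all lower, and the first sham array was the lowest of its group. It fell by 0.81 ± 0.20 in MCAO (adjusted p = 0.0309) and by 0.81 ± 0.20 in MCAO+NRG1 (adjusted p = 0.0162), and neither call held after centring (adjusted p = 0.0949 and 0.129). The host Aopep was 6.33, 6.36, 6.31 and 6.52 in sham and 5.83, 6.20 and 6.01 in MCAO. Its arrays did not overlap either, but the difference of −0.37 ± 0.18 did not pass (adjusted p = 0.187). The sister cluster Mir23a-Mir27a-Mir24-2 had 0 of 3 genes lower in MCAO, with Mir23a at −0.40 ± 0.15 in signal below the mark, and Mir23a and Mir27a were lower in MCAO+NRG1, by 0.59 each (adjusted p = 0.019 and 0.0463, and 0.164 and 0.239 after centring).

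**Figure D2:**
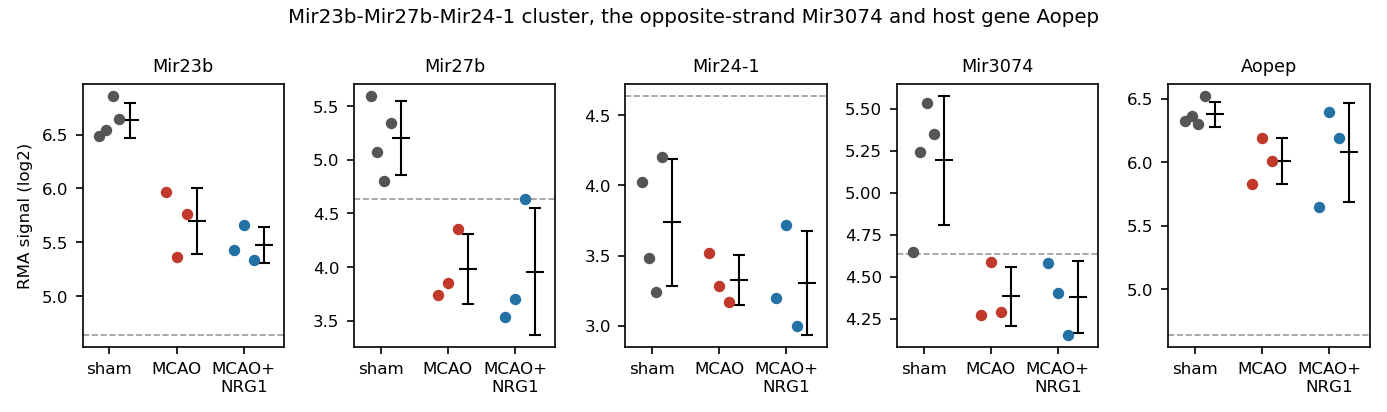
RMA signal (log2) of Mir23b, Mir27b, Mir24-1, the opposite-strand Mir3074 and the host gene Aopep on each array (points), with the group mean and SD beside them. The dashed line is the low-signal mark of 4.64. Mir23b runs from 6.49 to 6.86 in sham and from 5.34 to 5.96 on the 6 occluded arrays, whereas the Mir24-1 groups overlap.

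Genes between Dlk1 and Dio3 that the numbers did not remove were among the largest differences. Mir540 was 7.06, 7.37, 7.57 and 7.41 log2 in sham, 6.33, 5.87 and 6.55 in MCAO, and 6.43, 5.85 and 5.83 with NRG1. No occluded array reached the sham range. It fell by 1.10 ± 0.20 in MCAO (adjusted p = 0.0126) and by 1.32 ± 0.20 in MCAO+NRG1 (adjusted p = 0.00198). Mir544 was 5.10, 5.01, 4.81 and 4.63 in sham, 3.77, 4.12 and 3.43 in MCAO, and 3.53, 4.24 and 4.17 with NRG1. It fell by 1.12 ± 0.21 in MCAO (adjusted p = 0.0129) and by 0.91 ± 0.21 in MCAO+NRG1 (adjusted p = 0.0128, and 0.107 after centring). Of the 12 genes of that region 3 were lower in MCAO and 5 in MCAO+NRG1, where 5.61% and 15.8% of all probe sets were lower. After centring only Mir540 and Mir544 of these passed in MCAO, and only Mir540 in MCAO+NRG1. Without the 12 genes the counts over the remaining 310 were 23 lower in MCAO, and 63 lower and 2 higher in MCAO+NRG1.

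Mir501 belongs to an X-linked cluster in the chloride transporter gene Clcn5. It was 4.50, 4.88, 4.95 and 4.88 log2 in sham, 3.72, 4.04 and 2.69 in MCAO, and 3.72, 4.27 and 3.68 with NRG1. The third MCAO array was the lowest of all 10, and sham and the occluded arrays did not overlap. The difference in MCAO was −1.32 ± 0.26 (adjusted p = 0.0153), and it did not pass after centring (adjusted p = 0.0561). Of its cluster, Mir362 and Mir532 stood at 0.12 and 0.22 and Mir188 and Mir500 at −0.20 and −0.65 in MCAO, none of which passed. Clcn5 itself was at −0.25 ± 0.19 (adjusted p = 0.403).

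Mir224, in the GABA receptor subunit gene Gabre, was 3.28, 3.38, 3.89 and 3.61 log2 in sham, 2.61, 2.94 and 2.84 in MCAO, and 2.80, 2.93 and 3.04 with NRG1. It was lower on all 6 occluded arrays (−0.74 ± 0.17, adjusted p = 0.0249, and −0.62 ± 0.17, adjusted p = 0.0265), with all its values below the mark, and neither call held after centring (adjusted p = 0.0701 and 0.213). Mir628, in an intron of Ccpg1, was 4.09, 4.16, 4.50 and 4.39 log2 in sham, 3.43, 3.32 and 3.43 in MCAO, and 3.20, 3.43 and 3.89 with NRG1. It fell by 0.89 ± 0.18 in MCAO (adjusted p = 0.0159), while Ccpg1, an endoplasmic reticulum stress gene, stood at 0.05 (adjusted p = 0.857). Mir2964, opposite Mir219-2, was 5.82, 5.38, 5.73 and 5.42 in sham, 4.88, 4.36 and 4.75 in MCAO, and 4.71, 4.59 and 4.71 with NRG1. All 6 occluded arrays lay below sham, with differences of −0.93 ± 0.17 (adjusted p = 0.0127) and −0.92 ± 0.17 (adjusted p = 0.00563). Mir219-2, whose microRNA is known for oligodendrocyte maturation, stood at −0.57 ± 0.21 in MCAO, which did not pass (adjusted p = 0.0997), and fell by 0.75 ± 0.21 in MCAO+NRG1 (adjusted p = 0.0285, and 0.11 after centring). Probes of opposite strands were designed for different transcripts, and the part of strand carry-over in either value was not tested.

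**Figure D3:**
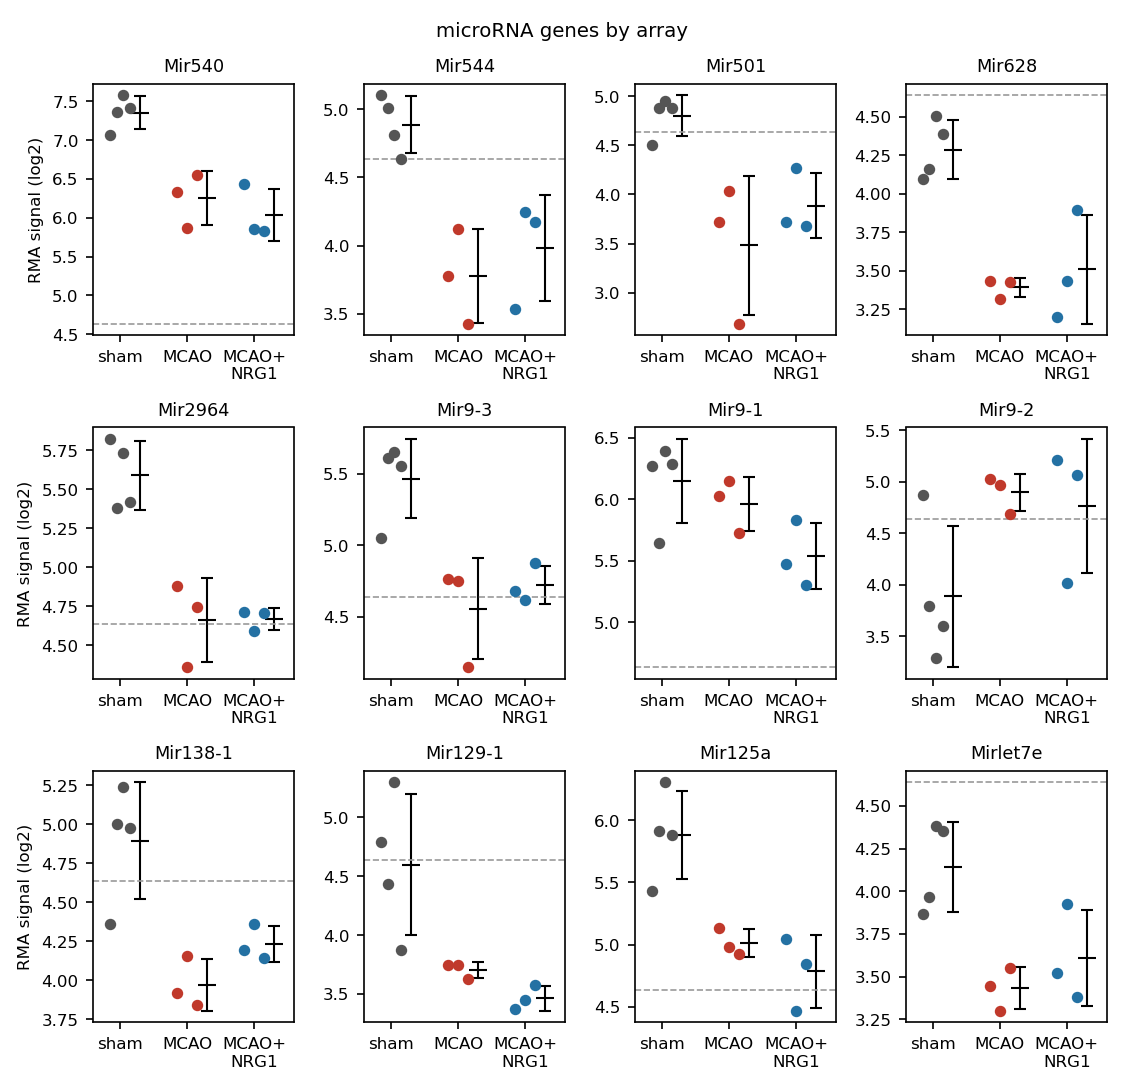
RMA signal (log2) on each array (points), with group mean and SD, of 12 microRNA genes, 10 of them lower in MCAO, and of Mir9-1 and Mir9-2, which did not pass there. The dashed line is the low-signal mark of 4.64. Mir540, Mir544, Mir501, Mir628 and Mir2964 show no overlap between sham and the occluded arrays, whereas Mir9-2 lies higher in MCAO than on 3 of the 4 sham arrays.

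Among 31 genes listed as neuron-enriched microRNAs, 7 were lower in MCAO and 10 in MCAO+NRG1, where 5.61% and 15.8% of all probe sets were lower, and 0 were higher in either. None of these calls held after median centring. The median was −0.36 log2 in MCAO and −0.48 in MCAO+NRG1, where all probe sets had −0.16 and −0.24, and after centring it was −0.20 and −0.21. The list was chosen with earlier results of these data known, so its counts cannot show that neuronal microRNAs fell more than others. It also holds the Mir219 and Mir338 genes, which are known from oligodendrocytes as well. The 7 were Mir9-3, Mir129-1, Mir137, Mir138-1, Mir339, Mir342 and Mir344b-1. The 4 protein-coding neuron markers (Rbfox3, Snap25, Syt1 and Stmn2) had a median of 0.04 in MCAO with none past the test, and the 3 cortical excitatory neuron markers had a median of −0.20, also with none past it. The array median of the 4 neuron markers was 11.28 to 11.71 over all 10 arrays. The members did not move as one: Mir124-2, a gene of the neuronal miR-124, was 5.77, 5.65, 5.92 and 5.80 in sham and 5.96, 5.39 and 6.02 in MCAO, a difference of 0.01 ± 0.23. Mir124-1, Mir124-3, Mir128-1 and Mir9, the last a miR-7b gene, stood between −0.14 and 0.37 in MCAO. In MCAO+NRG1 they stood between −0.26 and 0.25, and none passed in either. Mir124-1, Mir124-3 and Mir128-1 had mean signals of 2.42, 2.70 and 4.01 log2, below the mark, where a change can be understated. Mir128-1 also had an SD of 1.11 in MCAO.

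Several neuronal microRNAs are made from more than 1 gene, and the copies differed in their values. Mir9-3 was 5.05, 5.61, 5.65 and 5.55 log2 in sham, 4.76, 4.75 and 4.15 in MCAO, and 4.68, 4.62 and 4.87 with NRG1. It fell by 0.91 ± 0.19 in MCAO (adjusted p = 0.0193) and by 0.74 ± 0.19 in MCAO+NRG1 (adjusted p = 0.02), and neither call held after centring (adjusted p = 0.0761 and 0.203). Mir9-2, which gives the same mature miR-9a, was 4.87, 3.79, 3.29 and 3.60 in sham, 5.03, 4.97 and 4.69 in MCAO, and 5.21, 4.02 and 5.07 with NRG1. The first sham array lay among the occluded ones, and the difference of 1.01 ± 0.32 in MCAO did not pass (adjusted p = 0.0626). Mir9-1 stood at −0.18 ± 0.20 in MCAO, and it fell by 0.61 ± 0.20 in MCAO+NRG1 (adjusted p = 0.0469, and 0.336 after centring), where the arrays overlapped sham. The difference between the copies was not tested.

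Mir138-1 was 4.36, 5.001, 5.24 and 4.98 log2 in sham, 3.92, 4.16 and 3.84 in MCAO, and 4.20, 4.36 and 4.15 with NRG1. MCAO lay below sham, and with NRG1 1 array reached the lowest sham array. It fell by 0.92 ± 0.19 in MCAO (adjusted p = 0.0186) and by 0.66 ± 0.19 in MCAO+NRG1 (adjusted p = 0.0305), without passing after centring (adjusted p = 0.059 and 0.249), while the other miR-138 gene, Mir138-2, stood at −0.23 ± 0.18 (adjusted p = 0.408). Mir129-1 was 4.79, 4.43, 5.29 and 3.87 in sham, 3.75, 3.74 and 3.63 in MCAO, and 3.37, 3.45 and 3.58 with NRG1. Sham array 4 came close to the occluded ones. It fell by 0.89 ± 0.24 in MCAO (adjusted p = 0.0421) and by 1.13 ± 0.24 in MCAO+NRG1 (adjusted p = 0.0103), again without passing after centring (adjusted p = 0.108 and 0.0617), and its other copy Mir129-2 stood at 0.11 ± 0.16 in MCAO.

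The let-7 and miR-125 families are conserved microRNAs that mark differentiated cells, and 1 cluster in Spaca6 carries Mirlet7e, Mir125a and Mir99b. Mir125a was 5.43, 5.91, 6.30 and 5.88 log2 in sham, 5.14, 4.98 and 4.92 in MCAO, and 5.04, 4.47 and 4.84 with NRG1. It fell by 0.87 ± 0.20 (adjusted p = 0.0245) and by 1.10 ± 0.20 (adjusted p = 0.00484), and no occluded array overlapped sham. After centring the call was lost in MCAO (adjusted p = 0.0761) and held in MCAO+NRG1 (adjusted p = 0.0413). Mirlet7e fell by 0.71 ± 0.18 in MCAO (adjusted p = 0.0333, and 0.0898 after centring) and stood at −0.53 ± 0.18 in MCAO+NRG1 (adjusted p = 0.0528). Mir99b stood at −0.07 ± 0.21 in MCAO. Over 12 genes of the let-7 and Mir98 list, 1 was lower in MCAO and 2 in MCAO+NRG1 (Mirlet7a1 and Mirlet7c2). Of all probe sets 5.61% and 15.8% were lower, so these counts show nothing particular to the family. Only 2 of the 12 genes had a mean above the low-signal mark.

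Over the other lists the counts stand beside the 5.61% of all probe sets that were lower in MCAO and the 15.8% in MCAO+NRG1. Of the 15 genes of the Mir17-92 families 0 passed in MCAO and 2 were lower in MCAO+NRG1 (Mir17 and Mir106b). In the Mir30, Mir29 and Mir181 families, 0 of 6, 0 of 4 and 0 of 6 genes passed in MCAO and 1 of each was lower in MCAO+NRG1. Mir210, a microRNA induced by hypoxia-inducible factor, was 7.35, 7.93, 7.87 and 7.64 log2 in sham, 7.50, 7.57 and 7.54 in MCAO, and 7.62, 7.38 and 7.54 with NRG1. Its groups overlapped, and the difference in MCAO was −0.16 ± 0.16 (adjusted p = 0.535). Of 6 inflammation and leukocyte microRNAs 0 passed in either comparison with sham. Mir21, a microRNA induced in injured tissue, stood at −0.12 ± 0.16 in MCAO, and Mir146a, a feedback inhibitor of innate immune signalling, at −0.18 ± 0.16 in signal near the floor.

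Of 6 endothelial and mural microRNAs, Mir221 was lower in MCAO (−0.59 ± 0.17, adjusted p = 0.0461, and 0.167 after centring) and Mir126a in MCAO+NRG1. Mir126a was 3.76, 4.17, 4.68 and 4.40 log2 in sham, 3.75, 3.31 and 3.76 in MCAO, and 3.44, 3.08 and 3.19 with NRG1. The occluded arrays lay below sham in both groups, only just in MCAO, and the difference was −0.65 ± 0.20 (adjusted p = 0.0616) in MCAO and −1.02 ± 0.20 (adjusted p = 0.00775, and 0.0504 after centring) in MCAO+NRG1. Mir126b, on the opposite strand to Mir126a, is the one that RefSeq places inside the endothelial gene Egfl7. It stood at −0.15 ± 0.15 in MCAO (adjusted p = 0.529) and −0.11 ± 0.15 in MCAO+NRG1 (adjusted p = 0.629), in signal below the mark. Over the 6 genes the median was −0.29 log2 in MCAO and −0.29 in MCAO+NRG1, and −0.13 and −0.03 after centring. Protein-coding markers of vessels and meninges were counted beside the 5.61% of all probe sets lower in MCAO and the 15.8% in MCAO+NRG1. Of 5 endothelial markers 2 were lower in MCAO (Vwf and Tie1) and 5 in MCAO+NRG1. The array median of those markers was 6.77 to 7.26 in sham, 5.95 to 6.07 in MCAO and 5.30 to 6.57 in MCAO+NRG1. Of 3 mural markers 1 and 2 were lower, of 4 meningeal fibroblast markers 2 and 2, and of 4 choroid plexus markers 0 and 2. No marker of these cell types was higher in any comparison. After centring the endothelial markers had medians of −0.56 log2 in MCAO and −0.63 in MCAO+NRG1. Microglia, red blood cell and skeletal muscle markers had medians of −0.39, −0.57 and −0.63 in MCAO as deposited, and −0.41, −0.52 and −0.65 in MCAO+NRG1. Those of neuron, striatal neuron, astrocyte, oligodendrocyte and neutrophil markers were 0.04 to 0.27 in MCAO. The part of any cell type in the fall of the microRNA genes was not tested.

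With NRG1, 0 of 322 microRNA genes differed from MCAO at adjusted p under 0.05 in limma, where 0.0054% of all probe sets were lower and 0% higher. At an unadjusted p under 0.05, 17 were lower (5.28%) and 4 higher (1.24%), where 2.38% and 0.827% of all probe sets were. The arrays of the groups did not overlap for 21 genes lower and 8 higher, against 4.27% and 1.47% of all probe sets. The median difference was −0.03 log2 over the microRNA genes and −0.08 over all probe sets. The genes named for this comparison are therefore those of the smallest unadjusted p in each direction, and none of them passed. Mir132 is given beside Mir212 although its unadjusted p here was 0.104 in limma.

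Mir122, the liver microRNA, had the smallest p. It was 4.35, 4.18, 4.20 and 4.01 log2 in sham, 4.17, 4.46 and 4.72 in MCAO, and 3.57, 3.21 and 3.15 with NRG1. The 3 NRG1 arrays lay below the other 7. Only the third MCAO array, at 4.72, stood above the low-signal mark. The difference from MCAO was −1.14 ± 0.18 (adjusted p = 0.115), and against sham Mir122 fell by 0.88 ± 0.17 (adjusted p = 0.00717).

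Mir139, in the phosphodiesterase gene Pde2a, showed the same order. It was 5.48, 5.76, 6.13 and 5.84 log2 in sham, 5.76, 5.74 and 5.92 in MCAO, and 5.19, 5.10 and 5.06 with NRG1. The sham and MCAO arrays overlapped fully and the NRG1 arrays lay below both, at −0.69 ± 0.18 from MCAO (adjusted p = 0.999) and −0.69 ± 0.16 from sham (adjusted p = 0.0147, and 0.114 after centring). Mir330 stood at −0.73 ± 0.20 and Mir188 at −0.51 ± 0.15 from MCAO, with no overlap for either, and both were lower than sham (adjusted p = 0.0123 and 0.00718, and 0.0564 and 0.0536 after centring). Mir1949 was at −0.77 ± 0.23 from MCAO, with overlapping arrays. Mir330, Mir188 and Mir1949 lay below the low-signal mark on every array.

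In the other direction, Mir212 and Mir132 are made from 1 short transcript that neuronal activity induces through CREB. Mir212 was 5.62, 6.06, 6.22 and 5.13 log2 in sham, 5.86, 5.43 and 5.18 in MCAO, and 6.81, 7.53 and 5.61 with NRG1. Of the NRG1 arrays 2 lay above all others and the third among them, and the difference from MCAO was 1.16 ± 0.37 (adjusted p = 0.999). Mir132 was 3.75, 3.93, 3.69 and 4.47 in sham, 4.79, 4.16 and 3.92 in MCAO, and 5.18, 5.29 and 4.00 with NRG1. The same 2 NRG1 arrays were high, and the difference was 0.54 ± 0.31 from MCAO and 0.86 ± 0.29 from sham (adjusted p = 0.0511). Mir101a stood at 0.50 ± 0.18 and Mir33, in the sterol regulator gene Srebf2, at 0.51 ± 0.22 from MCAO, both in signal below the mark. Mir298 and Mir294 followed at 0.64 ± 0.29 and 0.37 ± 0.18, also in signal below the mark.

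**Figure D4:**
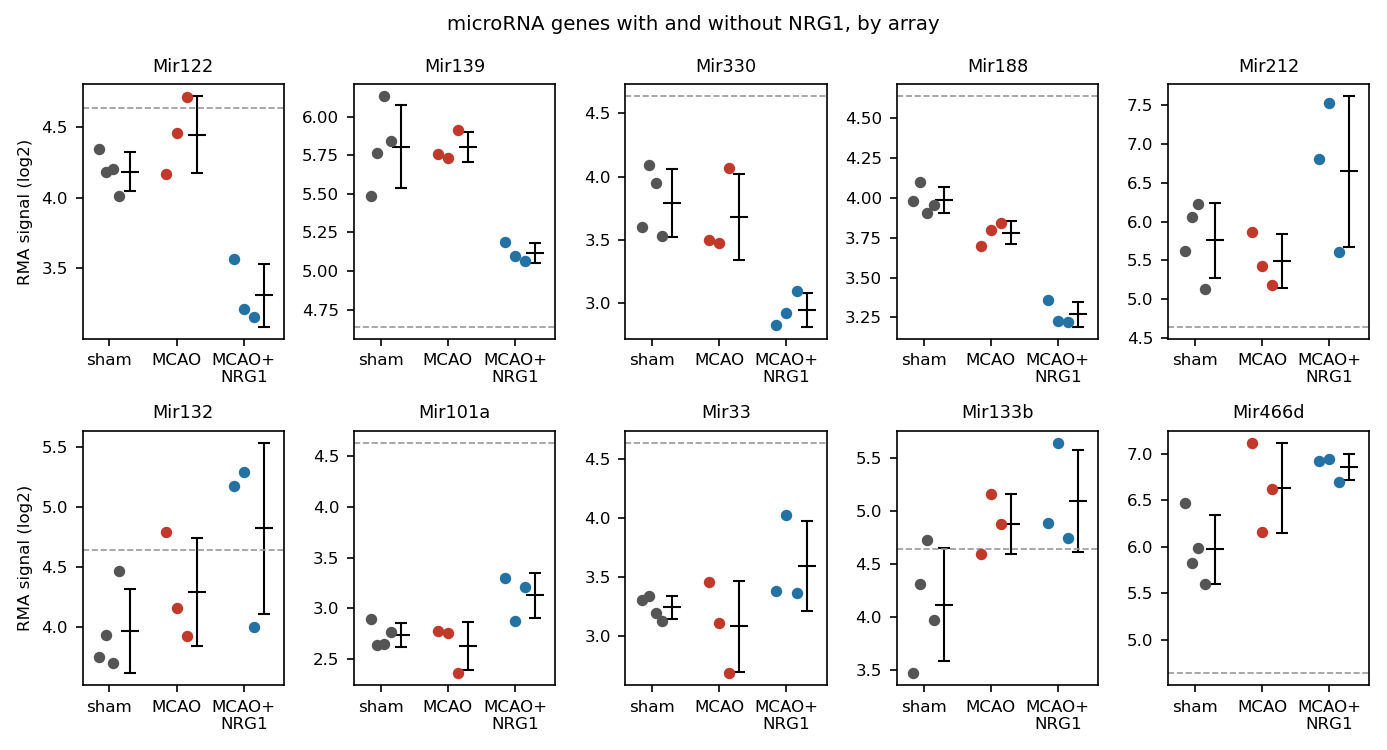
RMA signal (log2) of microRNA genes on each array (points), with group mean and SD. Mir122, Mir139, Mir330, Mir188, Mir212, Mir101a and Mir33 are among the genes of smallest unadjusted p between MCAO+NRG1 and MCAO. Mir132 is shown beside Mir212, and Mir133b and Mir466d were higher in MCAO+NRG1 than in sham. The dashed line is the low-signal mark of 4.64. The 3 MCAO+NRG1 arrays of Mir122 (3.15 to 3.57) and Mir139 (5.06 to 5.19) lie below all other arrays, and Mir212 is high on 2 of its 3 NRG1 arrays (6.81 and 7.53).

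Against sham, MCAO+NRG1 had more microRNA genes past the test than MCAO, with the same sham arrays on the other side. There were 68 lower (21.1%) and 2 higher (0.621%), where 15.8% of all probe sets were lower and 1.51% higher. At an unadjusted p under 0.05 there were 114 lower and 7 higher, where 32.1% and 3.88% of all probe sets were. Of the 68, 57 had all 3 NRG1 arrays below all sham arrays. Over the 322 genes such a gap was seen for 89 in the lower and 4 in the higher direction (27.6% and 1.24%), against 34.2% and 2.17% of all probe sets. The median was −0.29 log2 over the microRNA genes and −0.24 over all probe sets. Below the low-signal mark 18.1% of the microRNA genes were lower, against 14.7% of all probe sets and 7.13% of receptor probe sets. Above it 30.4% of the microRNA genes were lower, against 16.3% of all probe sets. After median centring 8 were lower and 3 higher, where 1.56% and 3.82% of all probe sets were. The 8 were Mir122, Mir125a, Mir23b, Mir27b, Mir2964, Mir346, Mir425 and Mir540, and the 3 were Mir133b, Mir466d and Mir880. Mir880 was 2.14 to 2.47 log2 in sham and reached 3.38 on the second NRG1 array. All its values lay below the mark, and its NRG1 arrays overlapped sham. Its adjusted p in limma was 0.0492 after centring and 0.0818 as deposited. Without 1 of sham arrays 2, 3 and 4 the total of 70 became 35, 33 or 29, and without 1 of the NRG1 arrays it became 30, 39 or 28. Of the named genes Mir125a, Mir126a, Mir129-1, Mir152, Mir23b, Mir27b, Mir346, Mir425 and Mir540 kept their call whichever array was left out.

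Mir346, which in human lies within the glutamate receptor gene GRID1, was 5.67, 6.01, 6.21 and 6.20 log2 in sham, 5.47, 5.52 and 5.50 in MCAO, and 4.97, 5.09 and 4.74 with NRG1. No group overlapped another. It fell by 1.09 ± 0.17 against sham with NRG1 (adjusted p = 0.00198) and stood at −0.53 ± 0.17 without it (adjusted p = 0.0605) and at −0.56 ± 0.18 between the occluded groups (adjusted p = 0.999). Mir425, in the gene Dalrd3, was 4.66, 5.13, 5.20 and 5.45 in sham, 4.33, 3.99 and 5.06 in MCAO, and 3.96, 4.17 and 3.91 with NRG1. The third MCAO array lay within sham, and the difference with NRG1 was −1.10 ± 0.23 (adjusted p = 0.00946). Mir152, in the coatomer gene Copz2, stood at −1.02 ± 0.22 with NRG1 (adjusted p = 0.0105, and 0.0506 after centring) in signal below the mark.

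The largest differences were not all the steadiest. Mir877, a microRNA spliced out as a whole intron, was 3.68, 4.96, 5.34 and 4.61 log2 in sham, 3.44, 3.38 and 4.45 in MCAO, and 3.19, 3.33 and 3.71 with NRG1. The first sham array lay within the NRG1 range, and the difference of −1.24 ± 0.33 passed (adjusted p = 0.0209). Mir708, in the teneurin gene Tenm4, was 4.30, 4.63, 3.26 and 3.97 in sham and 2.39, 2.95 and 3.48 with NRG1, at −1.10 ± 0.35 (adjusted p = 0.0439). Mir674 was 6.64, 6.19, 5.88 and 6.17 in sham and 5.25, 4.40 and 5.86 with NRG1, at −1.05 ± 0.30 (adjusted p = 0.0289). Mir708 overlapped sham and Mir674 came close to it. Mir877 and Mir674 lost the call without 4 of the arrays in turn and Mir708 without 7, and none of the 3 passed after centring.

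The 2 higher genes were Mir133b and Mir466d. Mir133b, a gene of the muscle miR-133 family, was 3.47, 4.31, 4.72 and 3.97 log2 in sham, 4.60, 5.16 and 4.87 in MCAO, and 4.89, 5.64 and 4.75 with NRG1. The third sham array reached into the MCAO range and nearly to the lowest NRG1 array. The difference was 0.76 ± 0.27 (adjusted p = 0.0838) in MCAO and 0.97 ± 0.27 (adjusted p = 0.0255) in MCAO+NRG1. The other 5 genes of the muscle and heart list lay between −0.14 and 0.09 in both comparisons, and of 3 skeletal muscle protein markers 0 and 1 were lower. Mir466d, in the imprinted gene Sfmbt2, was 6.48, 5.83, 5.98 and 5.61 in sham, 7.12, 6.16 and 6.62 in MCAO, and 6.93, 6.95 and 6.70 with NRG1. It rose by 0.89 ± 0.23 in MCAO+NRG1 (adjusted p = 0.0191) and stood at 0.66 ± 0.23 in MCAO (adjusted p = 0.0785). Both calls were lost without sham array 4 or without either of the first 2 NRG1 arrays, and that of Mir466d also without sham array 2 or the third NRG1 array, at adjusted p up to 0.0986 for Mir133b and 0.0657 for Mir466d.

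Mir98 and Mir216b did not pass in MCAO as deposited and passed after median centring. They also passed after quantile normalisation and, uncentred, without the first sham array (adjusted p = 0.0259 and 0.0374). Mir98, a let-7 gene in Huwe1, was 5.37, 4.90, 4.57 and 4.87 log2 in sham, 5.30, 5.32 and 6.59 in MCAO, and 4.93, 4.92 and 4.93 with NRG1. The third MCAO array carried most of the difference of 0.81 ± 0.26 (adjusted p = 0.0668 as deposited and 0.0411 after centring). Mir216b stood at 0.52 ± 0.19 (adjusted p = 0.084 and 0.0454) in signal below the mark.

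The hosts of microRNA genes were measured on the same arrays. RefSeq places 147 of the 322 genes inside a gene of the same strand, and 93 of these had their host among the measured genes, 71 different hosts. Of the 71, 4 were lower in MCAO and 11 in MCAO+NRG1, where 5.61% and 15.8% of all probe sets were. Of the 13 genes lower in MCAO with a measured host, 0 had a host that was lower. The hosts' differences ran from −0.40 for Mrc1 and Ttll10 to 0.20 for Evl, against −0.53 to −1.32 for the microRNA genes within them. In MCAO+NRG1 25 such genes were lower and 2 of them had a lower host: Mir874 in Klhl3 and Mir130b in its host 2610318N02Rikl. Mir207 fell by 0.68 there while its host, the heat shock gene Dnaja1, rose by 0.47 (adjusted p = 0.0456). Counts this small, beside those shares, show nothing particular to the hosts. Host and intron probes differ in signal range, and the difference between host and microRNA gene was not tested.

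Genes of the processing machinery were also measured. Of 19 measured genes of microRNA biogenesis and silencing 0 passed in MCAO and 2 were lower in MCAO+NRG1, where 5.61% and 15.8% of all probe sets were lower. These were Tarbp2, the Dicer partner (−0.65, adjusted p = 0.0345), and Tut4, a terminal uridylyl transferase of let-7 precursors (−0.50, adjusted p = 0.037), and neither passed after centring (adjusted p = 0.182 and 0.283). Drosha stood at −0.20 and −0.30 log2, and Dicer1 at −0.13 and −0.18, without and with NRG1.

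Base composition of the hairpin went with signal and with the differences. Over the 292 genes with a RefSeq hairpin, G and C made up 30.9 to 70.4% of it, with a median of 49.2%. As a description over genes, which share arrays and are not independent, Spearman's rho of GC share with mean signal was 0.57. With the difference it was −0.22 in MCAO against sham, −0.22 in MCAO+NRG1 against MCAO and −0.39 in MCAO+NRG1 against sham. Of the 76 genes with 55.6% or more, 24 were lower in MCAO+NRG1, with a median of −0.46 log2. Of the 74 with 44.2% or less, 6 were lower, with a median of −0.09, where 15.8% of all probe sets were lower. In MCAO the same sets had 6 and 2 genes lower, with medians of −0.25 and −0.16, where 5.61% of all probe sets were lower. The part of probe composition in the group differences was not tested.

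**Figure D5:**
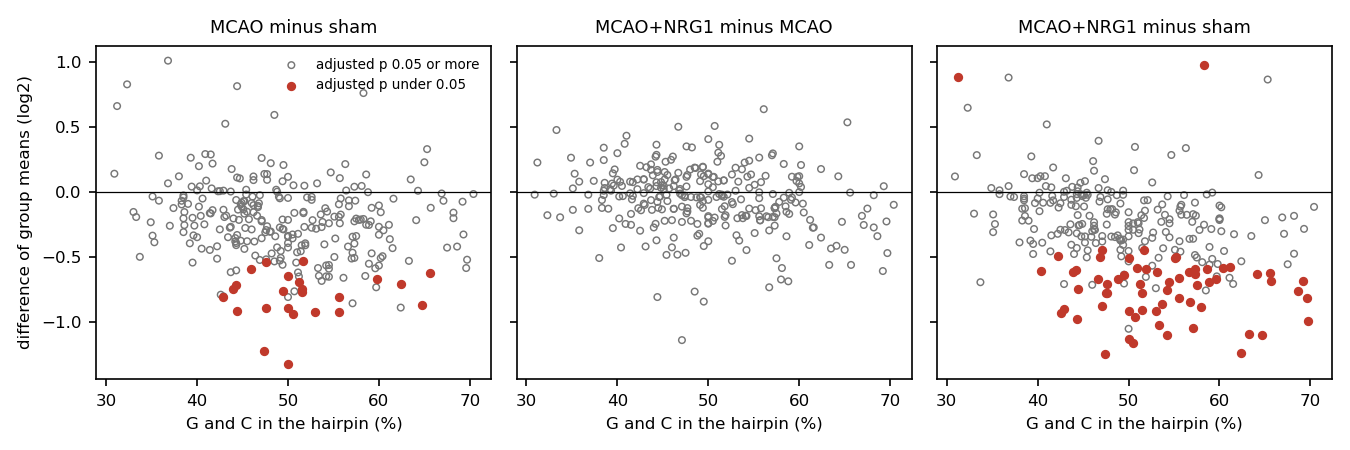
Difference of group means (log2) against the share of G and C in the hairpin (%) for the 292 microRNA genes with a RefSeq hairpin. Filled red points passed at adjusted p under 0.05. The cloud slopes down in all 3 comparisons, most in MCAO+NRG1 minus sham (Spearman's rho −0.39).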

How the data were processed

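The deposited values are log2 signals that the authors computed from the arrays with RMA in the oligo package (versions not given in the sources used here), 1 value per probe set. RMA ordinarily includes quantile normalisation, but the deposited array medians over all probe sets ran from 4.66 to 5.14, and which arrays and probes were normalised together is not given in the sources used here. Array number rather than depth limits the precision. Of 36685 probe sets, 17599 had no symbol and 575 several in the platform annotation. The remaining 18511 were fitted in limma 3.58.1 (R 4.3.3) with a mean per group over all 10 arrays, and p-values were adjusted by Benjamini-Hochberg over all of them, with calls at adjusted p under 0.05. Differences are log2 with the moderated SE. All 322 genes matched the RefSeq table (GRCr8), which was used for names, hosts and neighbours only, since the assembly behind the probe sets is not named. Genes named were the members called (at most 12 of the largest differences per direction), the 5 of smallest p where fewer were called, and a fixed list; others named in group counts were chosen from their values. The members and lists were chosen with earlier results of these data known. The limma script was tested on simulated data. Alternatives were median centring, quantile normalisation, a filter on low signal, a fit of every probe set, a trended robust variance, a replicate block, fits of 2 groups, averaging probe sets, leaving out the genes between Dlk1 and Dio3 and leaving out each array; centring without the third MCAO array was added after seeing the data. Animals were separate, and nothing gives extraction or scan batches.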

Additional observations from a re-analysis of the deposited data

Results flagged for a closer look

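In 4 of the 47 named genes, 1 sham array lay far from the other 3, with a gap to the nearest that was a larger share of the group's range than Dixon's 95% critical value for 4 samples, which chance alone would give in about 1 in 20 groups. The lowest sham array of Mir298 had a gap ratio of 0.863 (3.06 against 4.11 to 4.27 log2), that of Mir501 0.832 (4.50 against 4.88 to 4.95), that of Mir9-3 0.837 (5.05 against 5.55 to 5.65) and that of Mir9-1 0.832 (5.64 against 6.27 to 6.40). The outlying array was the first sham array for Mir298, Mir501 and Mir9-3 and the second for Mir9-1.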

How the results depend on the processing

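Counts of microRNA genes past the test in MCAO against sham and in MCAO+NRG1 against sham were 26 and 70 as reported, and they became 8 and 11 after median centring, 10 and 13 after quantile normalisation, 9 and 28 when only the 79 genes above the low-signal mark were kept, 4 and 29 when all probe sets were tested, and 2 and 18 with centring and without the third MCAO array. The fit of only the 2 groups gave 13 and 79. Trended robust variance gave 26 and 65, averaging of probe sets 29 and 71, and the counts without the genes between Dlk1 and Dio3 were 23 and 65. Unadjusted p-values gave 105 and 121, and 21 for MCAO+NRG1 against MCAO, where 0 genes passed under all other settings. Leaving out 1 array gave 4 to 66 and 28 to 86. The cause of these shifts was not tested.

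The split of calls moved with scaling too, from 0 higher and 26 lower to 2 and 6 after centring and to 3 and 7 after quantile normalisation in MCAO, and from 2 and 68 to 3 and 8 and to 3 and 10 in MCAO+NRG1. The median difference in MCAO went from −0.245 to −0.085 with centring, −0.064 with quantile normalisation and 0.008 with centring and without the third MCAO array. Against sham with NRG1 it went from −0.290 to −0.024 with centring, with or without the third MCAO array, to −0.058 with quantile normalisation and to −0.475 above the low-signal mark. Between the occluded groups it was 0.075 after centring and −0.122 above the mark, and as reported −0.032.

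Deviations of same-numbered arrays had correlations of −0.19 to 0.22, and those of differently numbered arrays −0.34 to 0.29. With 3 or 4 arrays a group, these values cannot decide whether arrays of 1 number share a batch. With the replicate number as a block the counts were 9 in MCAO and 36 in MCAO+NRG1 against sham and 0 between the occluded groups. Over 44 named differences and 854 values under the alternatives, 0 changed direction, 695 stayed on their side of the threshold, 120 were no longer past it and 39 newly passed. Of the 26 named differences that passed, 9 kept the call without any single array. The low signal of 243 of the 322 genes limits the size of the differences, and 3 or 4 arrays a group limit their precision.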

Other observations

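MicroRNA genes best known from other tissues are given here by their counts, where 5.61% of all probe sets were lower in MCAO and 15.8% in MCAO+NRG1. Of 15 epithelial microRNA genes 1 was lower in MCAO (Mir200a at −0.53 ± 0.14 log2) and 4 in MCAO+NRG1, Mir200a, Mir429, Mir183 and Mir96, the last at −0.59 ± 0.16 (adjusted p = 0.0259 in limma). None of these calls held after median centring. Mir183 and Mir96 share a cluster with Mir182, whose 3 genes lay between −0.65 and −0.58 in MCAO+NRG1. Of 12 genes of the rodent X-linked testis cluster 0 and 1 were lower (Mir465), of 6 of the early embryo cluster 0 and 1 (Mir290), and of 5 of the X-linked Mir322 cluster 0 in either comparison. The p53 target Mir34b was lower in both, at −0.54 ± 0.15 and −0.70 ± 0.15 (adjusted p = 0.0473 and 0.0109, and 0.184 and 0.125 after centring). Of 56 genes on chromosome X 3 were lower in MCAO and 5 in MCAO+NRG1, at and below the shares of all probe sets.

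Of the 147 genes inside a gene of the same strand 18 were lower in MCAO and 38 in MCAO+NRG1, with medians of −0.28 and −0.34 log2. Of the 175 others 8 and 30 were lower, with medians of −0.21 and −0.24. Over all probe sets 5.61% were lower in MCAO and 15.8% in MCAO+NRG1. The difference between these sets was not tested.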
